A study of Danio rerio with 6 samples.

Results

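The genes described here carry the signal from Toll-like receptors to the NF-kB and interferon regulatory transcription factors. They were measured in cells sorted by a neutrophil reporter from zebrafish with and without a znf711 morpholino. They were taken by gene symbol from the Ensembl rows of the count tables: Toll-like receptors, their adaptors and kinases, TRAF adaptors, the IkB kinases, NF-kB subunits and inhibitors, TNFAIP genes, IRF and STAT genes, and sting1, cgas and isg15. irf8 and stat3 were left out. The rule took 89 genes of the 32520 Ensembl gene rows. It uses names and no measured value, but the set was proposed with earlier results of these data known. The rule matches names, so it also took IRF2-binding proteins (irf2bp1, irf2bp2a, irf2bp2b, irf2bpl) and the TNFAIP8-like genes, which are not IRF proteins or parts of the receptor chain. One of the 2 rows called tlr7, ENSDARG00000075685, stands as FRMPD4 in the reference table of gene names, so that row is counted with the receptors by its name but not described as one.

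RNA was sequenced from cells sorted for GFP out of the line Tg(mpx:eGFP) on day 2, 48 hours after fertilisation. The stated question is what Znf711 does in neutrophil development. In this line the promoter of mpx, the myeloperoxidase gene, drives green fluorescent protein in neutrophils. The 3 libraries of the znf711 morpholino (MO) group have the label genotype znf711 knockdown, and the 3 control libraries have the label WT. Both groups carry the reporter, a morpholino knocks down its target transiently, and what the control animals were given is not stated in the sources used here. The series' design text names a znf711 mutant line, whereas the sample labels name the morpholino, and the labels were followed. The libraries are labelled as biological replicates. Nothing says whether they come from separate clutches or how many animals were pooled, and p-values measure the spread between these libraries.

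Toll-like receptors bind microbial products and, through the adaptors MyD88 and TICAM1, IRAK kinases and TRAF ubiquitin ligases, activate the IkB kinase complex. That complex marks IkB inhibitors for destruction and frees NF-kB dimers to enter the nucleus, where they also switch on their own inhibitors. Neutrophils use this route to sense bacteria and to start cytokine production. Gene roles below are known from mammals unless another species is named.

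Total counts were 1629804, 12093109 and 9550796 in MO replicates 1 to 3 and 7181804, 9311439 and 7635673 in control replicates 1 to 3. Levels are counts per 1000000 counts (CPM) after TMM scaling, and a count of 0, which allows up to 3 counts, corresponds to at most 1.58 CPM in MO replicate 1 and to between 0.278 and 0.483 CPM in the other 5 libraries. These limits cover counting error only. Levels per kilobase divide by the deposited gene length. For some genes, nfkbiab with 8023 bases among them, that length exceeds the distance from the start to the end of the row. How the lengths were made is not given, so rankings and shares per kilobase are approximate. Ensembl genes with at least 1 count numbered 8041 in MO replicate 1 and 13434 to 16074 elsewhere. The reporter gene mpx was at 549.5, 2698 and 4950.4 CPM in MO replicates 1 to 3 and at 507, 2889.8 and 2665 CPM in control replicates 1 to 3. MO replicate 1 and control replicate 1 were thus the libraries of lowest mpx level, and MO replicate 3 was the highest. The targeted gene znf711 was at 0.527, 11.1 and 17.3 CPM in the MO group, against 40.0, 16.3 and 9.65 CPM in controls. A morpholino need not lower its target transcript, and these overlapping values do not check the labels.

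No gene of the set passed edgeR's quasi-likelihood test between the groups. Of the 89 genes, 60 had enough counts to be tested, 14 had counts too low for testing and 15 had no count in any library. Among the 60, 0 passed an adjusted p of 0.05, every adjusted p was 0.9999 after rounding, and the background was likewise 0% of 16637 rows. DESeq2 called 0 of the 60, against 0.0721% of all rows, of which 0.0541% higher and 0.018% lower in the MO group, and it gave relb and tnfaip6 no adjusted p. limma-voom likewise called 0 of the 60. Unadjusted p was under 0.05 for 2 of the 60, cgas and tnfaip2a, both lower in the MO group, against a background of 0.463% lower and 1.05% in either direction. Both had enough counts to be tested only through the control group, where they were higher, so nothing is read from this share. In 1 tested gene, traf7, every MO library lay above every control library, against 2.08% of all rows. In 3 genes, cgas, tnfaip2a and tnfaip8l1, every MO library lay below, against 5.34%, a share near the background.

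**Figure D1:**
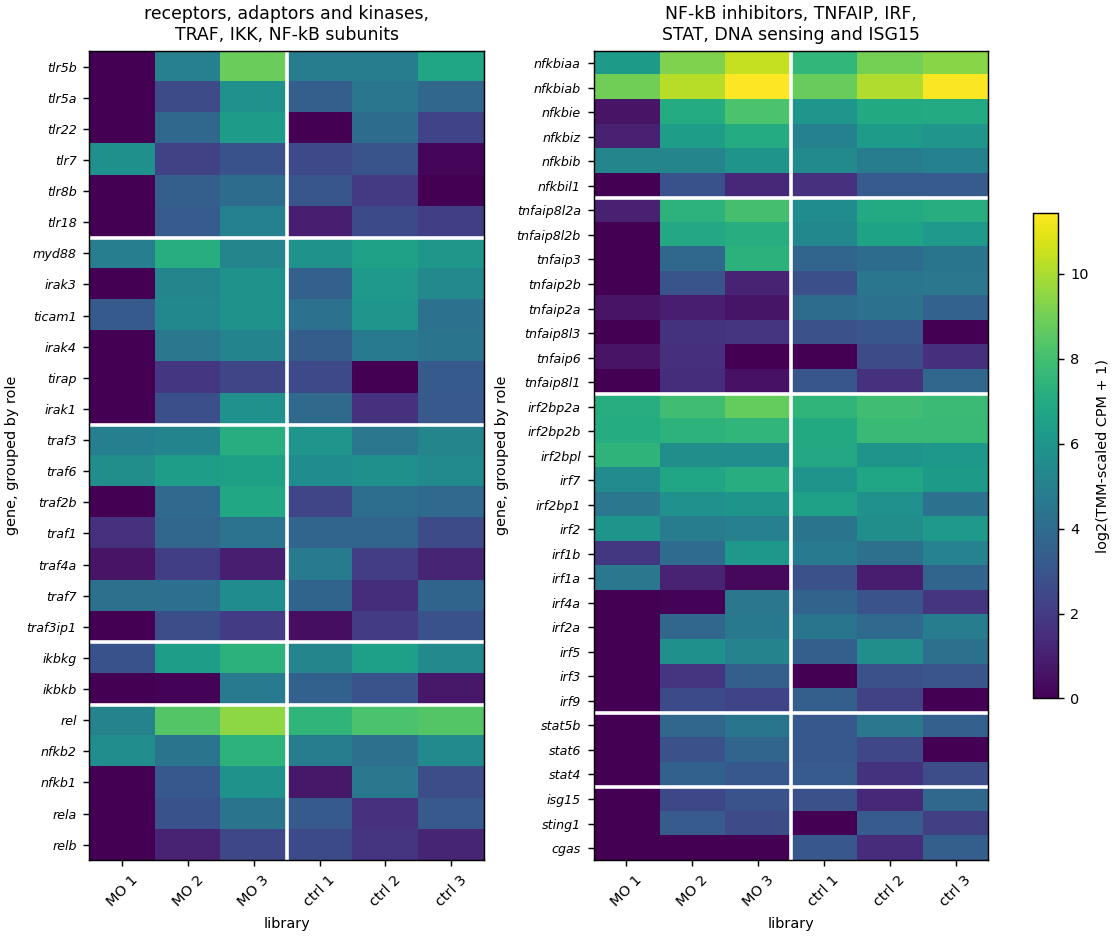
Level of 59 of the 60 tested genes in each library, as log2 of TMM-scaled CPM plus 1, with genes grouped by role and the 3 MO libraries left of the 3 control libraries. The column of MO replicate 1 holds the most genes at 0, 32 of the 60, and MO replicate 3 is the highest library for 33 of the 60.

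The libraries that stood apart in these genes were both in the MO group. Looked at after the values were seen, MO replicate 3 was the highest of the 6 libraries for 33 of the 60 tested genes, or 55.0%, against 19.1% of all rows. In 17 of them, 28.3%, its level was over 2 times that of the next library, against 4.32% of all rows. These 17 were the receptors tlr5a, tlr5b, tlr18 and tlr22, the kinase genes irak1 and ikbkb, the adaptors traf2b, traf3 and traf7, the NF-kB subunits rel, rela, nfkb1 and nfkb2, the inhibitors nfkbiaa and nfkbie, tnfaip3 and irf1b. Other lists, described below, shared the trait: MO replicate 3 was highest for 7 of 10 neutrophil markers, 12 of 20 inducible targets and 11 of 20 NF-kB regulators. The neutrophil and target tallies overlap, since mmp9 and both mmp13a rows, highest in MO replicate 3, count in each. It was highest for 6 of 13 macrophage markers, 3 of 15 further receptor signalling genes and 0 of 13 erythroid markers. MO replicate 1 stood at the other end, with 0 counts for 32 of the 60, or 53.3%, against 42.5% of all rows. At least 1 count was found for 28, 68 and 64 of the 89 genes in MO replicates 1 to 3 and for 62, 66 and 62 in control replicates 1 to 3. Summed over the 89 genes, the level was 1789, 3706 and 9894 CPM in MO replicates 1 to 3 and 2837, 3527 and 4561 CPM in control replicates 1 to 3, as CPM of all counts without TMM. The median log2 fold change of the tested genes, MO against control, was 0.20, with 38 positive and 22 negative, beside a median of -0.12 over all rows tested. Without MO replicate 3 the median was -0.52 over the 62 genes of the set then tested, beside -0.37 over all rows. Without MO replicate 1 it was 0.58 over 66 genes, beside -0.03 over all rows.

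The libraries also differed in markers of other cells. The neutrophil marker list, 11 rows of which 10 were tested, summed to 3531, 13005 and 27429 CPM in MO replicates 1 to 3, against 2662, 13204 and 14349 CPM in control replicates 1 to 3. lyz, the lysozyme gene, was close to 0 throughout, with 0 to 8 counts, and mpx, npsn and mmp9 had counts in all 6 libraries. Macrophage markers, which share Toll-like receptors with neutrophils, summed to 826, 2643 and 4311 CPM in the MO group and 1101, 1565 and 2664 CPM in controls. Of their 19 rows 13 were tested and 1, a row called MFAP4, was at 0 in every library. The list did not move as one: MO replicate 3 was the highest library for 6 of the 13. Picked after its values were seen, mpeg1.2 was at 0, 62.7 and 574 CPM in the MO group, against 18.5, 77.0 and 169 CPM in controls. Its paralog mpeg1.1 was at 1.05, 29.5 and 15.6 CPM in the MO group, against 5.98, 19.7 and 19.1 CPM in controls, and cd74a and c1qb had 0 counts in MO replicate 3. Haemoglobin and other erythroid markers, 13 of 14 rows tested, summed to 25408, 14226 and 3127 CPM in the MO group and 19872, 6380 and 4236 CPM in controls. Connective tissue markers were the reverse case, lower in the MO group in 12 of 12 tested rows by the sign of the fold change. Of all 16637 tested rows 9272 were negative. In 7 of the 12 every MO library lay below every control, against 5.34% of all rows. The connective tissue list summed to 752, 777 and 834 CPM in the MO group and 1859, 1337 and 970.2 CPM in controls, and 0 of its rows were called. Endothelial markers summed to 142, 373 and 259 CPM in the MO group and 459, 500.2 and 391.8 CPM in controls. Of their tested rows 11 of 11 were negative, against the same 9272 of 16637. Skeletal muscle markers summed to 684, 666 and 479 CPM in the MO group and 403, 453 and 575 CPM in controls. Of 12 tested muscle rows 8 were positive, and DESeq2 called 1, myhz2, higher in the MO group, against 0.0721% of all rows. Positive rows were 8 of 12 for neural, 4 of 6 for epidermal and 0 of 3 for lymphoid markers. The sorted samples are bulk RNA, so fewer cells of a type and less RNA per cell cannot be told apart. What part these markers have in the values below was not tested.

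**Figure D2:**
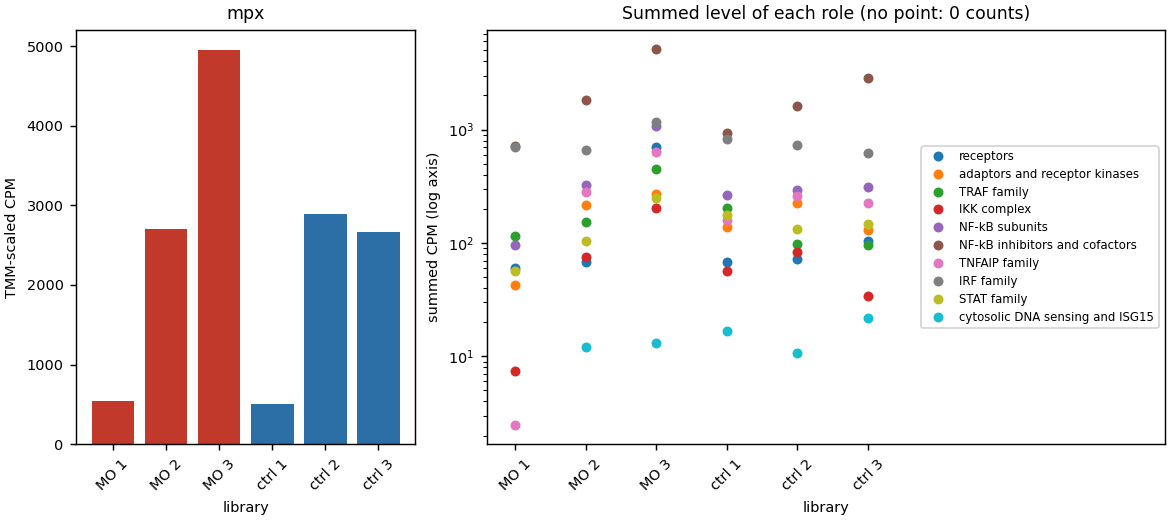
Left, mpx level in each library as bars (TMM-scaled CPM). Right, the summed level of each role in each library (CPM of all counts, log axis), with no point where the sum was 0. MO replicate 3 has the highest sum in each role except cytosolic DNA sensing and ISG15, and receptors reach 707 CPM there, against 60.7 to 104 CPM in the other 5 libraries. The 60.7 CPM of MO replicate 1 is the tlr7 row listed as FRMPD4 alone.

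Among the receptors, tlr5a, tlr5b, tlr8b, tlr18 and tlr22 had enough counts to be tested. Of 22 receptor rows, 11 had any count and 6 were tested, these 5 and the row listed as FRMPD4. In MO replicate 1 that row held every receptor count. tlr2, which binds lipopeptides, tlr3, which binds double-stranded RNA, and tlr9, which binds CpG DNA, had 0 counts in all 6 libraries, as did tlr20.1, tlr20.2, both tlr20.3 rows, tlr4al, tlr4bb, the other tlr7 row and 1 of 2 tlr19 rows. tlr1, tlr4ba, tlr8a, the other tlr19 row and tlr21 had 1 to 72 counts over the 6 libraries and were not tested. tlr21 had its 57 counts in MO replicate 3 and none elsewhere. Near-identical copies may share reads, so the counts of the tandem tlr20 and tlr4 genes are uncertain.

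The flagellin receptor gene tlr5b (ENSDARG00000052322, chr20:51466046-51476849, plus strand, GRCz11) was the most abundant receptor per kilobase, at 17.2 CPM per kilobase over the 6 libraries. It was at 0, 30.6 and 445 CPM in MO replicates 1 to 3, against 26.9, 28.2 and 105 CPM in control replicates 1 to 3. MO replicate 3 lay above and MO replicate 1 below every control, and MO replicate 2 lay among the controls. The log2 fold change was 1.58 ± 1.85 (approximate SE, n = 3 each), with an edgeR adjusted p of 0.9999. Its neighbour on the same strand, tlr5a (chr20:51478939-51482591), was at 0, 5.37 and 55.0 CPM in the MO group and 9.90, 21.4 and 12.9 CPM in controls, a log2 fold change of 0.47 ± 1.398. Both genes were highest in MO replicate 3 and at 0 in MO replicate 1. Without MO replicate 3 their log2 fold changes were -1.76 for tlr5b and -2.37 for tlr5a, the reverse of the direction with all libraries. Per kilobase, tlr5b made up 75.5% and 81.4% of the summed tlr5 level in MO replicates 2 and 3 and 59.5%, 41.6% and 81.6% in control replicates 1 to 3, over 320 to 5279 counts per library. The row of tlr5b lies over thbd on the same strand, and thbd had 53 counts in control replicate 3 and none elsewhere.

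The non-mammalian receptor genes tlr22 and tlr18 were also highest in MO replicate 3 and at 0 in MO replicate 1. tlr22 was at 0, 13.6 and 79.4 CPM in MO replicates 1 to 3, against 0, 15.7 and 3.86 CPM in controls. tlr18 was at 0, 9.07 and 31.6 CPM in the MO group and 0.921, 4.86 and 3.38 CPM in controls. Their log2 fold changes were 2.27 ± 1.87 and 2.16 ± 1.78, and MO replicate 2 lay within the control range for tlr22 and above it for tlr18. tlr8b, of a receptor type that senses RNA, was at 0, 10.1 and 15.3 CPM in the MO group and 7.25, 2.79 and 0 CPM in controls. The row listed as tlr7 in the files and as FRMPD4 in the reference table, a scaffold protein of synapses, was highest in MO replicate 1, with 52.2, 3.61 and 6.45 CPM in the MO group and 4.72, 6.92 and 0.161 CPM in controls. Its log2 fold change of 2.38 ± 1.59 became 0.34 without MO replicate 1.

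The adaptor myd88 (chr24:20188914-20192996), which links most Toll-like and interleukin-1 receptors to IRAK kinases, was not highest in MO replicate 3. It was at 28.5, 137 and 36.0 CPM in MO replicates 1 to 3, against 56.7, 92.6 and 64.5 CPM in control replicates 1 to 3. MO replicate 2 was the highest library and MO replicates 1 and 3 were the lowest. The mean was 67.1 ± 60.6 CPM in the MO group and 71.3 ± 18.9 CPM in controls (SD, n = 3 each), with a log2 fold change of -0.08 ± 0.64. Without MO replicate 2 it was -1.21, and without MO replicate 1 it was 0.27. ticam1, the adaptor used by TLR3, was at 8.44, 39.3 and 58.3 CPM in the MO group and 19.1, 64.0 and 19.1 CPM in controls. The kinase gene irak3, an inhibitor of the pathway, was at 0, 36.8 and 56.9 CPM in the MO group, against 10.2, 70.3 and 41.0 CPM in controls. irak4, the first kinase of the chain, was at 0, 22.6 and 34.3 CPM in the MO group, against 9.21, 24.5 and 19.95 CPM in controls. Both had 0 counts in MO replicate 1. In MO replicate 3 irak3 lay among the controls and irak4 above every control. irak1 reached 54.8 CPM in MO replicate 3, against 0 to 14.4 CPM in the other 5 libraries. tirap, a bridging adaptor, had 0 to 8.37 CPM, and irak1bp1 had 0 counts in every library. The median log2 fold change of the 6 tested adaptor and kinase genes was -0.01, and 3 of the 6 were positive. b2m lies over irak3 on the same strand, with 6 to 135 counts per library.

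TRAF proteins pass the signal on as adaptors and ubiquitin ligases. Of the 11 TRAF rows 7 were tested. Their median log2 fold change was 0.65, with 5 above 0 and 2 below. traf6, the ligase used by Toll-like and interleukin-1 receptors, stayed between 41.8 and 88.6 CPM. It was at 48.5, 81.6 and 88.6 CPM in MO replicates 1 to 3, against 45.7, 52.5 and 41.8 CPM in control replicates 1 to 3. MO replicates 2 and 3 lay above every control and MO replicate 1 within the control range, a log2 fold change of 0.65 ± 0.58. traf3, which limits the non-canonical NF-kB route and is needed for interferon induction, was the most abundant TRAF gene per kilobase. It was at 30.1, 34.8 and 137 CPM in the MO group and 60.6, 22.1 and 35.6 CPM in controls, a log2 fold change of 0.78 ± 0.72. Without MO replicate 3 that became -0.28.

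traf2b, an adaptor of tumour necrosis factor receptors, was at 0, 14.2 and 112 CPM in MO replicates 1 to 3, against 4.26, 16.5 and 14.0 CPM in controls. MO replicate 3 was 6.76 times the next library, and the log2 fold change of 1.87 ± 1.41 turned to -0.67 without it. traf7 (ENSDARG00000060207, chr3:35608385-35634727, plus strand), which acts with the kinase MEKK3, was the only tested gene with all MO libraries above all controls. It was at 17.4, 17.1 and 46.6 CPM in the MO group and 11.7, 1.82 and 11.9 CPM in controls, a log2 fold change of 1.67 ± 1.165. Without each library in turn it was between 1.02 and 1.98, and in groups that do not overlap the direction could hardly change. The edgeR adjusted p was 0.9999. caskin1 lies over traf7 on the opposite strand, and fbxw5 and coq4 over traf2b, each with counts in all 6 libraries. The sources used here do not say whether strand was used in counting, so such counts are uncertain. traf4a was at 25.4 CPM in control replicate 1 and at 0.527 to 3.33 CPM in the other 5 libraries. Its log2 fold change of -2.60 ± 1.87 became -0.44 without control replicate 1. traf1 was at 2.11, 12.5 and 19.2 CPM in the MO group and 12.3, 12.4 and 5.15 CPM in controls, with overlapping groups. traf5 had 0 counts in every MO library, against 31, 0 and 8 in controls. traf3ip1 had 0 to 6.44 CPM, traf3ip2l and traf4b were too low to be tested, and traf2a had 0 counts in all 6 libraries.

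In the IkB kinase complex, ikbkg, the regulatory subunit NEMO, was at 6.33, 83.3 and 160.0 CPM in MO replicates 1 to 3, against 36.2, 87.1 and 41.2 CPM in controls. MO replicate 1 lay below and MO replicate 3 above every control, a log2 fold change of 0.61 ± 0.84 that was -0.27 without MO replicate 3. The catalytic subunit gene ikbkb was at 0, 0.0926 and 25.3 CPM in the MO group, against 10.6, 6.56 and 0.644 CPM in controls. ikbke had 0 counts in every library.

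Among the NF-kB subunits, rel had the highest level per kilobase in all 6 libraries. This gene of c-Rel (ENSDARG00000055276, chr13:25795511-25819825, minus strand), a subunit that activates transcription, was at 33.8, 330.2 and 718 CPM in MO replicates 1 to 3, against 178, 288 and 328 CPM in control replicates 1 to 3. MO replicates 2 and 3 lay above every control, MO replicate 2 by a small margin, and MO replicate 1 lay below every control. The log2 fold change was 0.45 ± 0.81, and -0.53 without MO replicate 3. Per kilobase, rel made up 73.6%, 94.7% and 87.1% of the summed level of the 5 subunit genes in MO replicates 1 to 3 and 90.3%, 92.5% and 93.0% in control replicates 1 to 3. These shares rest on 155 counts over the 5 genes in MO replicate 1 and on 1913 to 10184 in the other libraries. rela, whose product p65 is the main activating subunit in many mammalian cells, was at 0, 6.39 and 19.9 CPM in the MO group and 8.51, 2.06 and 8.21 CPM in controls. Its log2 fold change of 0.50 ± 1.72 was -0.92 without MO replicate 3.

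nfkb2, the precursor of the non-canonical subunit p52, was at 48.0, 19.9 and 168 CPM in MO replicates 1 to 3, against 27.6, 17.5 and 41.5 CPM in controls. MO replicates 1 and 3 lay above every control and MO replicate 2 among them. The log2 fold change was 1.45 ± 0.76, positive without each library in turn and 0.22 without MO replicate 3. nfkb1, the precursor of p50, was at 0, 7.78 and 55.6 CPM in the MO group and 0.69, 22.2 and 5.47 CPM in controls. MO replicate 3 was again the highest library, and without it the log2 fold change of 1.18 ± 1.59 turned to -1.23. relb had 0 to 4.95 CPM.

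**Figure D3:**
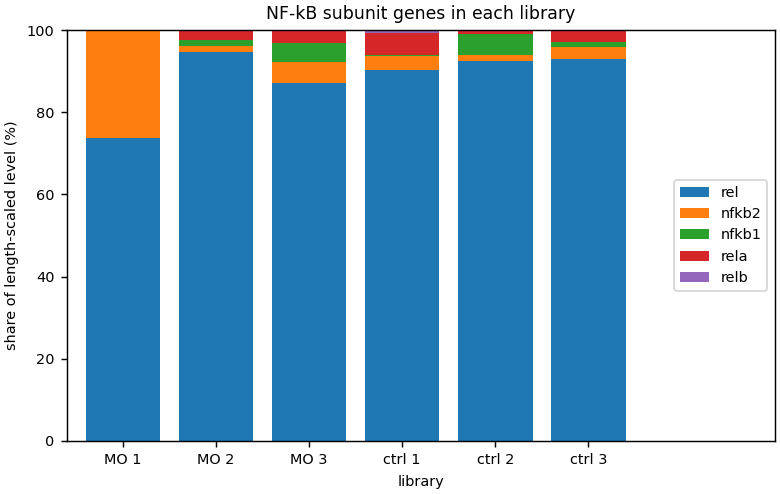
Share of each NF-kB subunit gene in the summed length-scaled level (CPM per kilobase) of the 5 genes, as stacked bars in percent per library. rel makes up between 73.6% and 94.7% in every library, and nfkb2 reaches 26.4% in MO replicate 1, over 155 counts.

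By the deposited lengths, the IkB-alpha paralogs nfkbiaa and nfkbiab, inhibitors that NF-kB itself induces, had the highest levels per kilobase after irf2bp2a. They were at 189.6 and 178 CPM per kilobase over the 6 libraries, for lengths of 3046 and 8023 bases. nfkbiaa (chr20:16881883-16884737) was at 73.8, 600.2 and 1392 CPM in MO replicates 1 to 3, against 190.4, 524 and 685 CPM in control replicates 1 to 3. nfkbiab (chr17:12942021-12949754) was at 500.5, 1175 and 2771 CPM in the MO group and 438, 1078 and 2606 CPM in controls. For nfkbiab the ranges of the groups overlapped almost in full, with a log2 fold change of 0.12 ± 0.69. For nfkbiaa, MO replicate 1 lay below and MO replicate 3 above every control, with a log2 fold change of 0.57 ± 0.87. Without MO replicate 3 the values were -0.46 for nfkbiaa and -0.71 for nfkbiab. Per kilobase, nfkbiaa made up 28.0%, 57.4% and 56.9% of their summed level in MO replicates 1 to 3 and 53.4%, 56.1% and 40.9% in control replicates 1 to 3. psma6b lies over nfkbiaa on the opposite strand and had 107 to 587 counts per library.

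nfkbie, the gene of IkB-epsilon, separated the 2 libraries of low mpx level. It was at 0.527, 130 and 292 CPM in MO replicates 1 to 3, against 63.5, 122 and 128 CPM in controls. nfkbiz, an atypical IkB needed for late cytokine genes, was at 1.05, 84.4 and 130 CPM in the MO group and 31.5, 79.0 and 61.0 CPM in controls. Both were near 0 in MO replicate 1 but not in control replicate 1, whose mpx level was similar. nfkbib was steadier, at 37.4, 36.3 and 59.7 CPM in the MO group and 42.0, 27.7 and 31.4 CPM in controls, a log2 fold change of 0.40 ± 0.69. Of the 6 inhibitor and cofactor genes 5 had a positive log2 fold change, and the median was 0.37. The exception was nfkbil1, a nuclear protein, at 0 to 9.17 CPM.

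Set against mpx, nfkbiaa, rel and nfkbie in MO replicate 3 lay below control replicate 1, the control of lowest mpx level, and above the other 2 controls. Per 1000 mpx counts, nfkbiaa had 134, 222 and 281 counts in MO replicates 1 to 3, against 376, 181 and 257 in control replicates 1 to 3. rel had 61.4, 122 and 145 in the MO group and 352, 99.7 and 123 in controls. nfkbie had 59.1 in MO replicate 3, against 125, 42.2 and 48.0 in control replicates 1 to 3. Other genes had another order: nfkbiab had 560 in MO replicate 3, against 865, 373 and 978 in control replicates 1 to 3. irf7 had 28.3 there, against 117, 35.9 and 28.1. tlr5b had 0, 11.4 and 90.0 in the MO group, against 53.1, 9.75 and 39.5 in controls, and tnfaip3 had 0, 5.01 and 33.2 in the MO group, against 24.1, 5.29 and 7.79 in controls. For tlr5b and tnfaip3 MO replicate 3 stayed above every control on this scale. The genes set against mpx were chosen without a rule, and other genes highest in MO replicate 3 were not scaled this way. myd88 had 51.8, 50.8 and 7.28 per 1000 mpx counts in the MO group and 112, 32.1 and 24.2 in controls, with MO replicate 3 the lowest library.

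**Figure D4:**
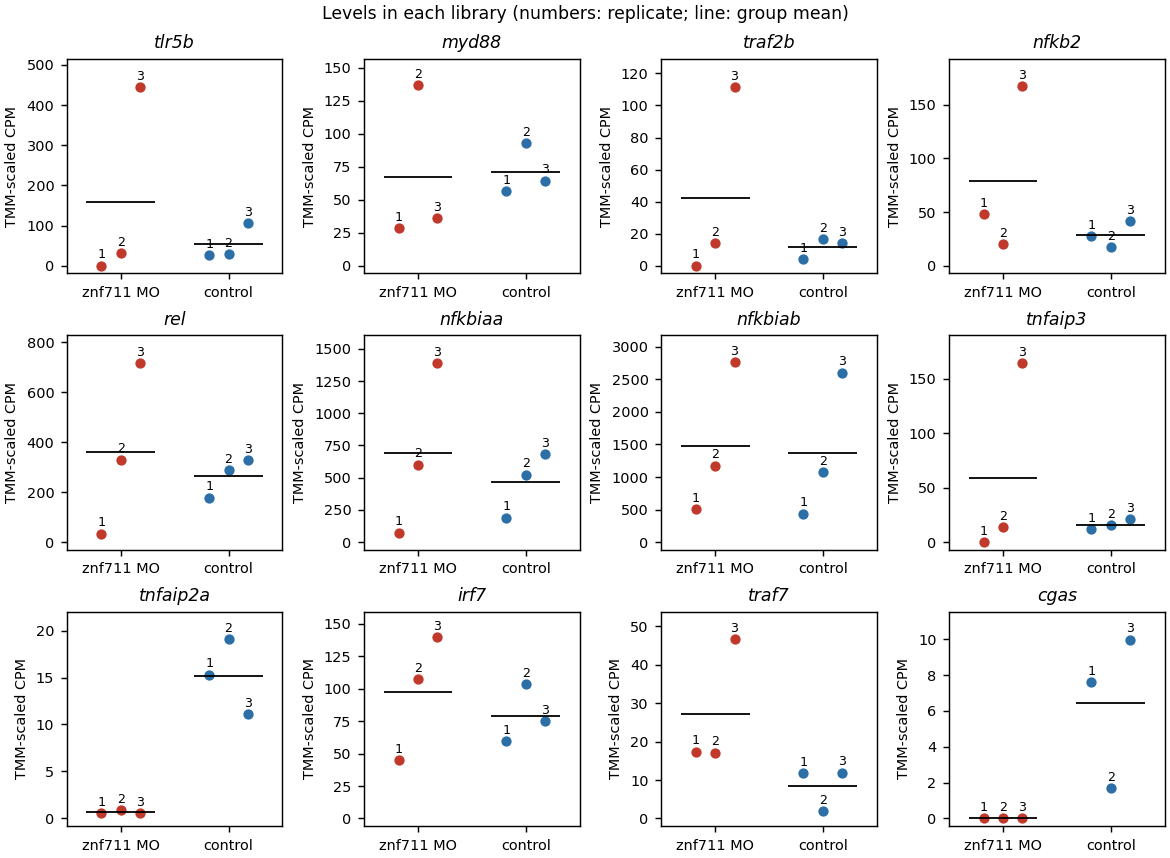
TMM-scaled CPM of 12 genes in each library, with the znf711 MO group left of the controls, the replicate number above each point and a line at the group mean. MO replicate 3 is the highest point for tlr5b, traf2b, nfkb2, rel, nfkbiaa, nfkbiab, tnfaip3, irf7 and traf7, while for tnfaip2a and cgas all 3 MO points lie below the controls.

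Apart from the TNFAIP8-like genes, the TNFAIP genes were named for their induction by tumour necrosis factor. They encode several unrelated kinds of protein. tnfaip3 (chr13:1182257-1208930), the gene of the deubiquitinase A20 that ends NF-kB signalling, was at 0, 13.5 and 164 CPM in MO replicates 1 to 3, against 12.2, 15.3 and 20.8 CPM in control replicates 1 to 3. The controls lay close together, and MO replicate 3 was 7.91 times the next library. Its log2 fold change of 1.90 ± 1.49 turned to -1.21 without MO replicate 3. tnfaip2a (ENSDARG00000043416, chr20:18661624-18685352, plus strand), of a family that acts in membrane protrusions, was lowest in the MO libraries. It had 1, 10 and 6 counts, or 0.527, 0.926 and 0.569 CPM, in MO replicates 1 to 3, against 133, 157 and 69 counts, or 15.3, 19.1 and 11.1 CPM, in control replicates 1 to 3. The groups did not overlap, and the log2 fold change was -4.43 ± 1.73, between -4.80 and -4.26 without each library in turn. Without overlap, leaving out a library could hardly change that direction. The unadjusted p was 0.02, the edgeR adjusted p 0.9999 and the DESeq2 adjusted p 0.116, so the difference did not pass. Connective tissue and endothelial marker sums were lower in the same libraries, and their part in the values of tnfaip2a, tnfaip8l1 and cgas was not tested.

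The paralog tnfaip2b was at 0, 6.76 and 1.14 CPM in the MO group, against 5.87, 21.7 and 22.4 CPM in controls. MO replicate 2 lay just above the lowest control, and the log2 fold change was -2.61 ± 1.67. tnfaip8l1 had 0, 20 and 5 counts, or 0, 1.85 and 0.474 CPM, in the MO group and 63, 17 and 80 counts, or 7.25, 2.06 and 12.9 CPM, in controls. Its groups did not overlap, by a margin of 1.85 against 2.06 CPM, with a log2 fold change of -3.14 ± 2.04 and an edgeR adjusted p of 0.9999. CR936300.2 lies over tnfaip8l1 on the same strand and had counts in MO replicate 2 and control replicate 1. The genes of TIPE2, which restrains Toll-like and T cell receptor signalling in mice, were at 41.6 CPM per kilobase for tnfaip8l2a and 29.2 for tnfaip8l2b over the 6 libraries. tnfaip8l2a was at 1.05, 169 and 266 CPM in MO replicates 1 to 3, against 46.1, 127 and 139 CPM in controls, and tnfaip8l2b was at 0, 117 and 140.2 CPM in the MO group, against 39.5, 96.9 and 71.0 CPM in controls. For both paralogs MO replicates 2 and 3 lay above every control and MO replicate 1 below, with log2 fold changes of 0.49 ± 1.25 and 0.32 ± 1.34. Without MO replicate 3 that of tnfaip8l2a was -0.28. tnfaip6 and tnfaip8l3 stayed between 0 and 7.28 CPM, and tnfaip1 had 0 counts.

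The interferon regulatory factors switch on interferon and interferon-induced genes. All 16 rows taken by this name had counts and 13 were tested. Their median log2 fold change was 0.09, and 7 of the 13 were above 0. The summed level was 695, 657 and 1166 CPM in MO replicates 1 to 3 and 822, 725 and 621 CPM in controls, without TMM. irf2bp2a, an IRF2-binding protein gene, had the highest level per kilobase of the whole set, for a deposited length of 1001 bases. It was at 140.3, 239 and 422 CPM in the MO group and 177, 239.8 and 222 CPM in controls, a log2 fold change of 0.33 ± 0.48 that was -0.17 without MO replicate 3. Its paralog irf2bp2b was at 136, 167 and 186 CPM in the MO group and 123, 212 and 209 CPM in controls, with overlapping groups. irf2bpl was highest in the 2 libraries of low mpx level, at 170.3 CPM in MO replicate 1 and 120.2 CPM in control replicate 1, against 47.1 to 68.1 CPM in the other 4.

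irf7, the main inducer of interferon in virus infection, was the most abundant true IRF gene per kilobase. It was at 44.8, 108 and 140.1 CPM in MO replicates 1 to 3, against 59.5, 104 and 74.8 CPM in control replicates 1 to 3. The mean was 97.5 ± 48.4 CPM in the MO group and 79.3 ± 22.4 CPM in controls (SD, n = 3 each), and the log2 fold change was 0.30 ± 0.55. irf1b, a factor of interferon-gamma responses, was at 2.64, 15.2 and 67.0 CPM in the MO group, against 24.6, 17.6 and 33.0 CPM in controls. irf1a was highest where irf1b was lowest, with 22.7, 1.204 and 0.19 CPM in the MO group and 6.21, 0.85 and 12.4 CPM in controls. Its log2 fold change of 0.28 ± 1.83 turned to -3.20 without MO replicate 1, and that of irf1b, 0.19 ± 1.01, turned to -1.46 without MO replicate 3. irf2 was at 59.1, 27.8 and 30.7 CPM in the MO group and 20.02, 50.02 and 70.3 CPM in controls. irf5, which serves Toll-like receptors in macrophages, was at 0, 51.7 and 34.1 CPM in the MO group, against 10.01, 49.4 and 17.9 CPM in controls. The groups of irf2 and irf5 overlapped. irf2a was at 0, 12.7 and 23.4 CPM in the MO group, against 20.6, 13.8 and 27.5 CPM in controls, and tmem134 lies over it on the opposite strand. irf2bp1 was at 22.1, 54.8 and 59.2 CPM in the MO group, within the 18.5 to 91.0 CPM of controls. irf3, irf4a and irf9 were at 0 to 21.9 CPM, with 0 counts in MO replicate 1, and irf4b and irf10 were too low to be tested.

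The STAT genes carry cytokine and interferon signals. stat2, a part of the interferon-induced transcription complex, had 0 counts in each MO library, against 0, 4 and 52 counts in control replicates 1 to 3. Pooled over the group, with 3 counts as the limit, stat2 was at least 18.8-fold lower in the MO group. That bound covers counting error only, not the spread between libraries, and control replicate 1 was also at 0. Most of those control counts came from control replicate 3, and the gene had too few counts to be tested. By the same bound, traf5 was at least 13.1-fold lower in the MO group, and tlr21 and irf4b at least 18.9-fold and 8.3-fold higher. The counts of tlr21 and of irf4b came from 1 MO library each, and these genes too were not tested. stat4, stat5b and stat6 were at 0 to 22.5 CPM with 0 counts in MO replicate 1, and stat5a had 0, 8 and 143 counts in the MO group and 0, 54 and 0 in controls.

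cgas (ENSDARG00000021572, chr13:27328098-27332360, plus strand), the sensor of cytosolic DNA that makes the messenger cGAMP, was found in every control library and in no MO library. It had 0 counts in each of MO replicates 1 to 3, against 66, 14 and 62 counts, or 7.59, 1.70 and 9.98 CPM, in control replicates 1 to 3. The groups did not overlap. Pooled over the group, with 3 counts as the limit, cgas was at least 47.5-fold lower in the MO group. For cgas too, that bound covers counting error only, not the spread between libraries. The unadjusted p was 0.0093, the edgeR adjusted p 0.9999 and the DESeq2 adjusted p 0.326, so it did not pass. The fitted log2 fold change of -8.64 depends on the prior count, and it ranged from -9.06 to -8.22 without each library in turn. With 0 counts in every MO library, leaving out a library could not reverse it. In MO replicate 1 alone, the limit of 1.58 CPM is close to the level of control replicate 2, whereas in MO replicates 2 and 3 it was 0.278 and 0.284 CPM. sting1, the receptor of cGAMP, was at 0, 8.89 and 5.12 CPM in the MO group and 0, 8.86 and 3.54 CPM in controls, with nearly the same values in the 2 groups. isg15, the ubiquitin-like protein induced by interferon, was at 0, 4.63 and 6.64 CPM in the MO group and 6.21, 1.46 and 13.5 CPM in controls. Its log2 fold change of -0.88 ± 1.84 became 0.015 when control replicate 3 was left out.

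**Figure D5:**
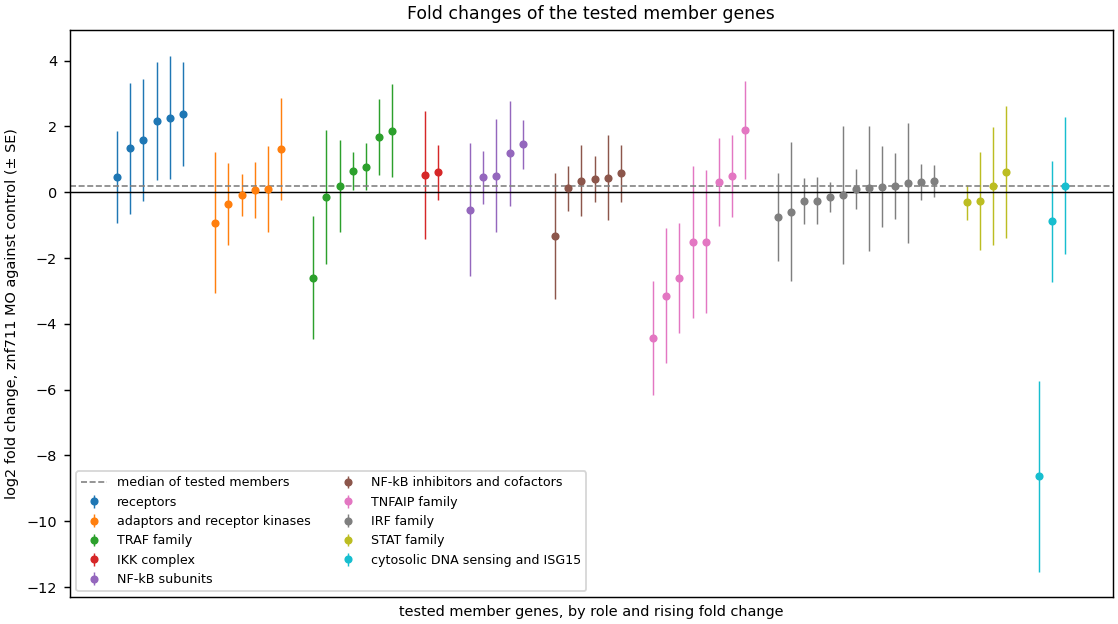
Log2 fold change, znf711 MO against control, of the 60 tested genes with its approximate standard error, grouped by role and ordered within each role, with a dashed line at the median of 0.20. The lowest point is cgas, whose fitted value of -8.64 depends on the prior count, and 5 of 8 TNFAIP genes are negative.

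Other genes of the same pathways, from lists written out beside the members, did not pass either. Of 15 tested genes of Toll-like and interleukin-1 receptor signalling 0 were called higher and 0 lower, with 3 above 0, 12 below and a median of -0.11 on the log2 scale. Of 20 NF-kB regulators 0 were called, with 12 positive and a median of 0.22. tnip2, a partner of A20, was at 11.6, 151 and 746 CPM in MO replicates 1 to 3, against 70.2, 175 and 120.5 CPM in controls, and bcl10, of the CARD-BCL10-MALT1 complex, at 99.1, 87.8 and 444 CPM in the MO group, against 14.3, 112 and 204 CPM in controls. In both genes MO replicate 3 was the highest library. Of 13 interferon and Jak-Stat genes 0 were called, with 7 positive and a median of 0.10. Among interferon-induced genes of that list, rsad2, usp18, mxb and ifit10 had 0 counts in every library. The others, mxa, mxc, ifit8 and ifit9, had counts in some libraries of either group but too few to be tested. Of 20 inducible target rows 0 were called, with 14 positive and a median of 0.45. That list summed to 1209, 7000 and 20049 CPM in MO replicates 1 to 3 and 1393, 5806 and 8852 CPM in controls, without TMM. Its mmp9 row and both mmp13a rows also stand in the neutrophil marker list, so the sums and tallies of these lists are not separate. In MO replicate 3 these rows were at 4907, 3105 and 1945 CPM after TMM, and in control replicate 3 at 2995, 2103 and 1337 CPM. il1b was at 155, 1416 and 5498 CPM in the MO group and 383, 957 and 2671 CPM in controls, and tnfb at 0, 260.1 and 877 CPM in the MO group, against 88.3, 186 and 513 CPM in controls. tnip2, bcl10, il1b and tnfb were picked after their values were seen. In the receptor signalling list MO replicate 3 was the highest library for 3 of 15 genes, and in the regulators for 11 of 20. It was the highest for 6 of 13 interferon and Jak-Stat genes and for 12 of 20 target rows.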

How the data were processed

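Polyadenylated RNA of GFP-sorted cells was sequenced in 3 znf711 MO and 3 control libraries, grouped by the sample titles. Per the file headers, each deposited table holds 1 sample and its raw counts of reads for every gene row. Trimmomatic, HISAT2 2.0.5, HTSeq, edgeR, DESeq2 1.16.1 and the build GRCz11 are named, without role or order, in the submitters' processing notes. The annotation release, any use of strand and the handling of multi-mapped reads: not given in the sources used here.

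Deposited counts were tested with edgeR 4.0.16 in R 4.3.3. All 59330 rows entered, filterByExpr kept 16637 at its minimum count of 10, TMM scaled them, and a robust quasi-likelihood model had group as the single term. The Benjamini-Hochberg adjustment ran over all 16637 rows, with a threshold of 0.05. An approximate standard error came from the size of each log2 fold change over the root of its F statistic. DESeq2 1.42.0 and limma-voom 3.58.1 were alternatives. edgeR's common biological coefficient of variation came to 1.09. The code was tested on simulated counts with known changes in rows of higher level. cgas, tnfaip2a, tnfaip8l1 and other genes of low level lay below the rows changed, so the rates do not cover them. At the dispersion of these libraries the code recovered 6 of 100 changes of 4-fold and 54 of 100 of 16-fold, with 6 false calls. At a coefficient of variation of 0.2 it recovered 100 of 100 of each, with 13 false calls. A gene that did not pass may therefore still differ between the groups. The reference gene name table held 88 of the 89 identifiers.

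The members, lists and tests were chosen with earlier results of these data known. Values in every library were given, by rule, for the most abundant member of each role per kilobase, for members whose groups did not overlap, for the 5 of smallest p in each direction and for fixed genes of the pathway. A few items of the set are not reported here. Further members were added to account for each role.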

Additional observations from a re-analysis of the deposited data

How the results depend on the processing

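No gene of the set passed under any of the 15 alternatives run. Rows passing in the whole table were 12 with DESeq2, 2 without a filter on low counts and 0 to 2 without single libraries, against 0 as reported. The median log2 fold change of the set, 0.20, was 0.32 with at least 50 counts in 3 libraries, 0.62 without both libraries of lowest mpx level (0.02 over all rows), and -0.52 to 0.58 without single libraries. Same-numbered libraries correlated in their deviations from the group means at 0.135, 0.112 and 0.0139, and differently numbered ones at -0.136 to 0.0746. The values 0.135 and 0.112 were the highest, but 0.0139 lay below some of the differently numbered ones. All were small, and they do not settle whether the numbers are pairs. The labels name no pairs, and the reported fit took none. With the replicate block the median was -0.32, beside -0.30 over all rows, 0 rows passed, and the log2 fold changes reversed for ikbkg (-0.13), rel (-0.27), nfkbiaa (-0.028), tlr5b (-0.37), tnfaip8l2a (-0.62), traf2b (-0.079), tnfaip3 (-0.27), tlr5a (-1.67), nfkb1 (-0.22), rela (-0.013), irf1a (-0.43) and irf1b (-0.64). They also reversed in limma-voom for tlr5a (-1.001), rela (-0.11) and irf1a (-1.62), and without both libraries of lowest mpx level for myd88 (0.14) and irf1a (-3.21). The causes were not tested. Leaving out single libraries gave ranges that crossed 0 for isg15 (-1.54 to 0.015), ikbkg (-0.27 to 1.15), myd88 (-1.21 to 0.27), irf2bp2a (-0.17 to 0.63), rel (-0.53 to 0.98), nfkbiaa (-0.46 to 1.09), nfkbiab (-0.71 to 0.96), tlr5b (-1.76 to 2.55), tlr5a (-2.37 to 1.03), tnfaip8l2a (-0.28 to 1.06), traf3 (-0.28 to 1.23), traf2b (-0.67 to 2.44), tnfaip3 (-1.21 to 2.46), nfkb1 (-1.23 to 2.80), rela (-0.92 to 1.05), irf1a (-3.20 to 0.99) and irf1b (-1.46 to 0.70). Of 25 tested genes given by rule, 8 kept their direction under every alternative in which they were tested. cgas, tnfaip2a, tnfaip8l1 and traf7 were among them, but their groups did not overlap. Leaving out single libraries could hardly reverse such genes, so nothing is read from this. At the depth of MO replicate 1, a count of 0 allows a level of up to 1.58 CPM.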

Other observations

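Unnamed gene models on alternate scaffolds had counts at positions near 3 receptor genes that were at or near 0. The models start 6976 to 17463 bases from the receptor by number, although positions on such scaffolds need not line up with the chromosome. Near tlr21 a model of 3679 bases, against 5133 for tlr21 itself, had 0, 850 and 3907 counts in MO replicates 1 to 3 and 138, 775 and 1014 counts in control replicates 1 to 3. Near tlr4ba a model of 3532 bases, against 4881 for tlr4ba itself, had 109, 470 and 549 counts in the MO group and 502, 407 and 159 in controls. Near a tlr20.3 row a model of 571 bases had 0, 54 and 1 counts in the MO group and 3, 15 and 0 in controls. The files give these models no name, no gene annotation of this build was used here, and whether they hold copies of the receptors was not tested.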
